A study of Mus musculus with 24 samples.

Results

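The RNA of embryoid bodies made from mouse embryonic stem cells that lack both receptor SMADs was compared with the RNA of the undifferentiated wild-type (WT) stem cells. The comparison used 4 of the 24 samples of the series: the 2 libraries labelled as Smad2/3 double knockout, day 4, and the 2 libraries of stem cells at day 0. All cells are of E14Tg2a.IV, a mouse embryonic stem cell line. The day 0 cells are WT and pluripotent. The day 4 cells carry the Smad2 and Smad3 double knockout and had grown for 4 days as embryoid bodies, the cell aggregates that form and differentiate in suspension without the self-renewal factor LIF. The 2 libraries of WT embryoid bodies of day 4 serve below to show where the double knockout differs. Both double knockout libraries carry the same line number, so the genotype cannot be told apart from that line. No stem cell library of the double knockout was analysed here, so the comparison joins 4 days of differentiation with the difference in genotype, and these cannot be told apart. Whether the paired libraries come from separate cultures is not in the labels, so p-values measure only the spread between these libraries.

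SMAD2 and SMAD3 are phosphorylated by the receptors for Nodal, Activin and TGF-beta and enter the nucleus with SMAD4, whereas BMP receptors act through other receptor SMADs. In stem cells and epiblast, Nodal signalling feeds on itself and also induces its own inhibitors, the Lefty proteins. After LIF is withdrawn, stem cells leave the naive state, pass through a state like the primed epiblast of the implanted embryo, and then form primitive streak derivatives (mesoderm and endoderm) or ectoderm. Trophoblast, the outer layer that makes the placenta, and primitive endoderm, which makes the yolk sac, separate from the epiblast before implantation.

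The libraries held 35733249 to 53672980 expected counts, the estimated reads per gene. Levels are given as CPM, counts over library totals scaled by TMM, always replicate 1 before replicate 2. Changes are log2 fold changes of the double knockout over the stem cells from edgeR's quasi-likelihood test, fitted over the 10 RNA libraries, with a standard error (SE) and a Benjamini-Hochberg adjusted p over 19470 genes. The test itself gives no SE, so the SE is the size of the log2 change over the square root of the test's F statistic. It is approximate, most of all for genes with few counts. A gene is said to have risen or fallen where that p was under 0.05. In bulk RNA, fewer cells of a type and less RNA per cell cannot be told apart. The libraries of a group correlated on log2 CPM at 0.985 (day 0) and 0.988 (double knockout) across genes, and each pair differed by more than sampling noise.

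The genes named by the label were measured first. Smad2 stood at 19.1 and 22 CPM in the stem cells, 22.2 and 22.7 CPM in the double knockout and 49.9 and 38.3 CPM in WT at day 4. Its RNA in the double knockout was close to the stem cell level (log2 change 0.13, SE 0.18, adjusted p = 0.57) and lower than in WT at day 4 (log2 change -0.98, SE 0.18, adjusted p = 0.0047). Smad3 stood at 8.57 and 10.2 CPM, 28 and 25.7 CPM and 42 and 44.9 CPM in the same order. It rose from day 0 (log2 change 1.52, SE 0.17, adjusted p = 0.00012) to a level under that of WT at day 4 (log2 change -0.69, SE 0.16, adjusted p = 0.014), a difference that was not called without double knockout replicate 1 (adjusted p = 0.074) or 2 (adjusted p = 0.12). The tables count whole genes and do not show which part of a gene was altered, so neither level checks the label. Smad4, the partner of both, rose from 42.1 and 44 CPM to 154 and 141 CPM (log2 change 1.78, SE 0.17, adjusted p = 6.5e-05).

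Several traits of the double knockout libraries bear on no germ layer. Of 5 tested Y-linked genes 4 were lower than in the stem cells, and their summed level was 81.2 and 79.3 CPM at day 0, 2.64 and 0.0232 CPM in the double knockout and 148 and 89.4 CPM in WT at day 4. Eif2s3y, Uty and Ddx3y were at 0 in replicate 2 and at 1.27, 0.353 and 0.955 CPM in replicate 1. Xist, the RNA that coats an inactive X chromosome, stood at 0.568 and 0.658 CPM in the stem cells, 74.2 and 104 CPM in the double knockout and 7.52 and 4.35 CPM in WT at day 4. The 587 tested genes of the X chromosome changed by a median of 0.56 from day 0 and -0.04 against WT at day 4 (log2). Over the genes of all chromosomes these medians were -0.01 and -0.07. On chromosome 18, which holds Smad2, the 40 tested genes past that locus changed from day 0 by a median of -0.76 and against WT at day 4 by -1.15 (log2), and the 331 ahead of it by 0.62 and 0.33. These counts hold genes with a mean of at least 1 CPM in the stem cells, the double knockout or WT at day 4. The part of these traits in the results below was not tested.

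Transcript length moved with the comparison across all genes, as the plot of change by length shows. Protein-coding genes were split into 10 bins of equal size by length. In the shortest bin (median 832 bases) the median log2 fold change was -1.46, with 74.5% of genes lower and 6.52% higher. In the longest bin (median 6290 bases) it was 1.22, with 70.3% higher and 4.53% lower. The shortest bin held 29.0% and 22.5% of protein-coding counts in the stem cells and 12.1% and 11.5% in the double knockout. It held 11.0% and 13.0% in WT at day 4, 13.3% and 13.7% in the Smad3 knockout, but 24.4% and 22.6% in the Smad2 knockout, also at day 4. Against WT at day 4, the double knockout showed no such trend: its bin medians lay between -0.12 and -0.01. With an offset for length and GC content in the fit, 4187 of the 5723 genes that rose and 3310 of the 5056 that fell were called in the same direction, 126 and 38 in the opposite direction. Beside each group below, the count with this offset is given where it differs by more than 1.5 times, and the value of a named gene where the offset gains, ends or reverses its call. Of the 152 named genes 65 moved by more than 1.5-fold with it, among them Lrp2, Peg3 and Peg10, which are long, and Tcf15 and Gsc, which are short.

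**Figure D1:**
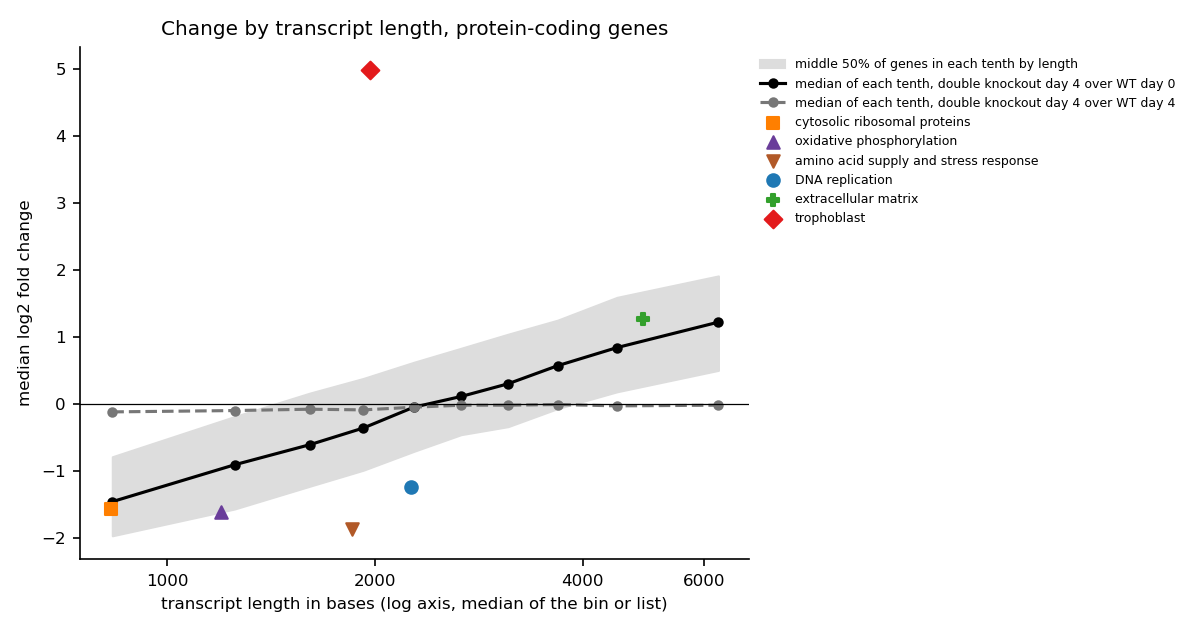
Median log2 fold change (vertical axis) of protein-coding genes of at least 1 CPM in either group, in 10 bins of transcript length (horizontal axis, bases, log scale); the black line is the double knockout at day 4 over WT day 0, the grey band its middle 50% of genes, the dashed line the double knockout over WT at day 4, and the symbols are 6 gene lists at their median length. The black line climbs from -1.46 to 1.22 while the dashed line stays near 0; the ribosomal list lies on the black line and the trophoblast list far above it.

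Of the 19470 genes tested, 10779 (55.4%) changed between the stem cells and the double knockout at day 4: 5723 (29.4%) rose and 5056 (26.0%) fell. In 84.8% of the tested genes the libraries of the 2 groups did not overlap. Leaving out any 1 of the 4 libraries gave 7474 to 8575 genes, the latter without stem cell replicate 2, whose file name, unlike those of the other 3 libraries, belongs to a second series. The rises were larger at the far end: 674 genes rose and 182 fell by more than 16-fold. In WT cells over the same 4 days, 10139 genes (52.1%) changed, 5622 (28.9%) up and 4517 (23.2%) down. Tested directly at day 4, 4506 genes (23.1%) differed between double knockout and WT, 2105 (10.8%) higher and 2401 (12.3%) lower in the double knockout; unscaled TPM in limma gave 2046 and 1021. Without double knockout replicate 1 that total was 2126, and without replicate 2 it was 2166. The split from day 0 depends on the scaling: plain library totals gave 7488 genes higher and 3444 lower, and unscaled TPM in limma gave 7750 and 1395. These scalings moved the median of all genes from 0.06 to 0.45 and 0.77. Changes below are therefore relative to a TMM scale on which the middle gene is near 0. On unscaled log2(TPM + 1), 17 of the 55 named genes that fell and were tested there were not called: Chrd, Eno1, Foxp1, Gsc, Kcnj3, Lef1, Mesp2, Pcna, Pecam1, Pim2, Pmepa1, Snrpn, Sox3, Tbx3, Tek, Tgif1 and Tubb3. Of the 74 named genes that rose and were tested there, 1 was not called: Cdx2.

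**Figure D2:**
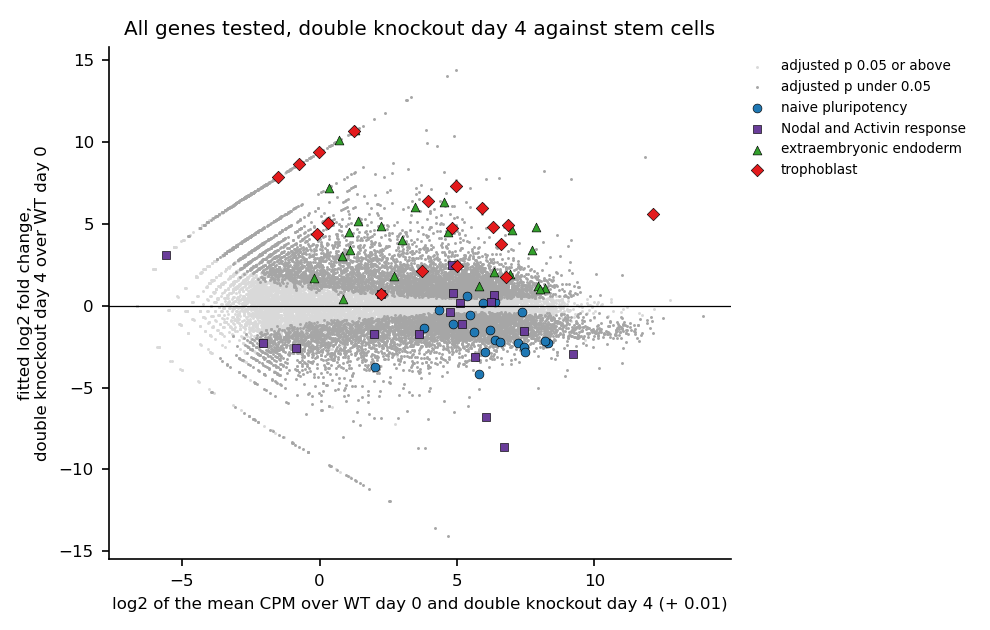
Fitted log2 fold change of the double knockout at day 4 over WT day 0 (vertical axis) against the log2 mean CPM of the 2 groups (horizontal axis), 1 point per tested gene, dark where adjusted p was under 0.05; 4 lists are marked. Trophoblast and extraembryonic endoderm genes lie above 0 and most naive pluripotency genes below it, with Lefty1 and Lefty2 as the lowest members of the Nodal and Activin list; points on the outer curved edges have 0 counts in a group, and their height is no bound.

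**Figure D3:**
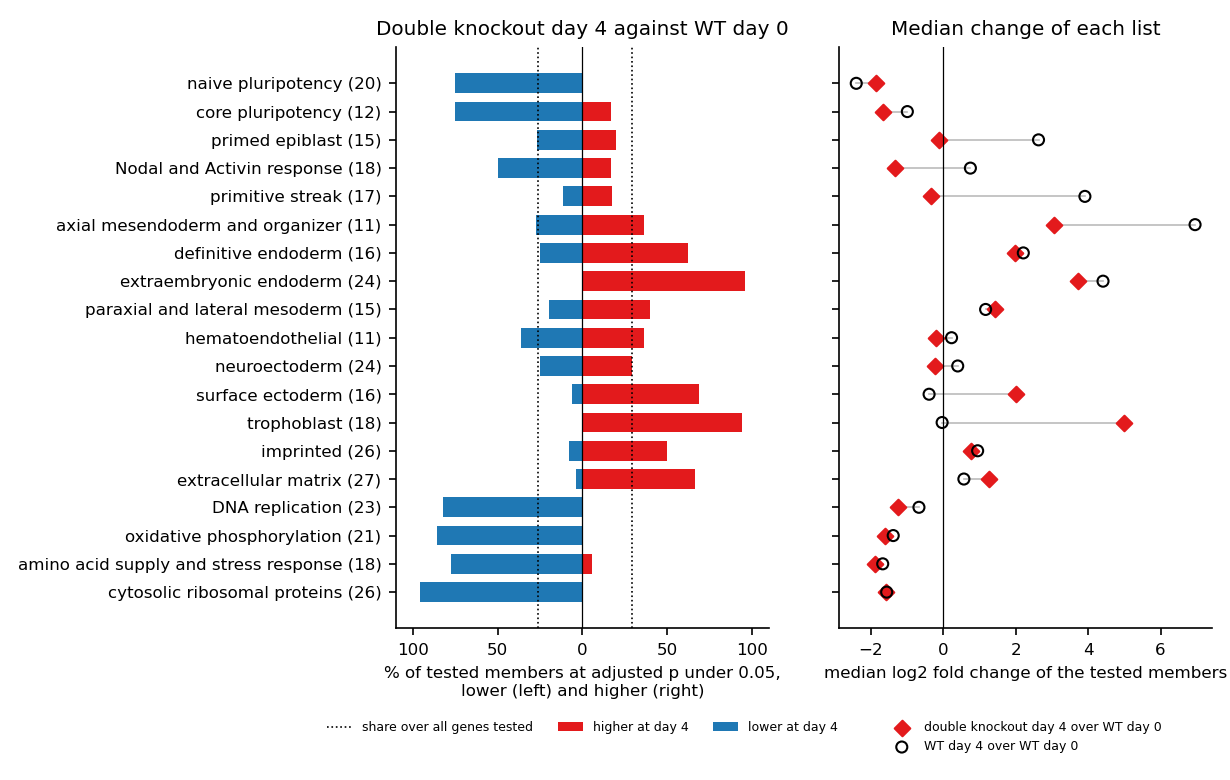
Left, percent of each list's tested members (number in brackets) that rose (red, to the right) or fell (blue, to the left) from WT day 0 to the double knockout at day 4, with dotted lines at the shares over all genes tested (29.4% and 26.0%). Right, median fitted log2 fold change of the same members in the double knockout (red diamonds) and in WT (open circles), both over WT day 0; the wide gaps are in primed epiblast, Nodal response, primitive streak, organizer, surface ectoderm and trophoblast genes.

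Most genes that mark the naive pluripotent state fell in the double knockout. Of 20 naive pluripotency genes 15 fell (median log2 fold change -1.85), and in WT 18 fell. Nr0b1, which encodes the nuclear receptor DAX1, stood at 107 and 102 CPM in the stem cells and 6.91 and 4.87 CPM in the double knockout (log2 change -4.15, SE 0.45, adjusted p = 0.00012). Zfp42, the marker REX1 (chosen after its values were seen), went from 480.1 and 492 to 121 and 94.5 CPM (log2 change -2.18, SE 0.33, adjusted p = 0.00054). Both genes were lower in each double knockout library than in each stem cell library. Fgf4, the autocrine FGF of stem cells, fell from 303 and 284 to 54.5 and 48.9 CPM (log2 change -2.51, SE 0.27, adjusted p = 0.00011). Fbxo15 and Tbx3 fell by 2.26 and 1.61 on the log2 scale.

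Part of the naive list stayed above WT. At day 4, 7 of the 20 genes were higher in the double knockout than in WT (2 without double knockout replicate 1 and 3 without replicate 2). From day 0, 19 fell with the length and GC offset. The uncalled members from day 0 (named after their values were seen) were Tfcp2l1, Dppa3, Tet2, Stat3 and Il6st. Tfcp2l1, a transcription factor of the LIF and STAT3 pathway, held 180.4 and 188 CPM in the stem cells, 156 and 129 CPM in the double knockout and 59.1 and 43.5 CPM in WT at day 4, a difference between the day 4 groups of 1.47 (SE 0.34, adjusted p = 0.014). Without double knockout replicate 1 the adjusted p of that difference was 0.089. Its double knockout level lay near the stem cell level and above both WT day 4 libraries. With the length and GC offset, its change from day 0 was -1.70 (adjusted p = 0.00095). Il6st, Stat3 and Tet2, also long, were then called lower too (-0.94, -0.46 and -0.62, adjusted p = 0.0011, 0.029 and 0.049).

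Core pluripotency factors fell further than in WT. Of 12 genes 9 fell and 2 rose, and 7 were lower than in WT at day 4 (3 without double knockout replicate 2). Pou5f1, which encodes OCT4, went from 2172 and 2067 CPM in the stem cells to 165 and 137 CPM (log2 change -3.81, SE 0.33, adjusted p = 4.1e-05), while WT at day 4 held 424 and 859.6 CPM. Nanog went from 448 and 456 to 152 and 127 CPM (log2 change -1.69, SE 0.17, adjusted p = 7.8e-05), with 266 and 228 CPM in WT. Sox2 went from 414 and 469.6 to 142 and 96.7 CPM (log2 change -1.89, SE 0.22, adjusted p = 0.00017), with 165 and 161 CPM in WT. For Pou5f1 and Nanog the order was the same in every library: stem cells highest, WT at day 4 between, double knockout lowest. Against WT at day 4 the difference was -2.09 for Pou5f1 (adjusted p = 0.0015) and -0.82 for Nanog (adjusted p = 0.0072, or 0.09 without double knockout replicate 2), while Sox2 gave -0.45 (adjusted p = 0.17). Foxd3, a transcription factor needed for the epiblast, fell from 25.4 and 33.8 to 2.22 and 1.25 CPM (log2 change -4.09, SE 0.49, adjusted p = 0.00017), and WT at day 4 kept 12.4 and 28.2 CPM. The 2 members that rose were Rif1 and Zfp281. Rif1 rose by 1.71 (adjusted p = 0.0021) and Zfp281 by 0.69 (adjusted p = 0.023), but with the length and GC offset Rif1 gave 0.36 (adjusted p = 0.23) and Zfp281 -0.46 (adjusted p = 0.02). Zfp281 was also not called when any 1 of the 4 libraries was left out (adjusted p = 0.052 to 0.14).

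Primed epiblast genes were mostly not induced. Of 15 genes 3 rose and 4 fell (median -0.11), whereas 15 of 15 rose in WT (median 2.63), and all 15 were lower in the double knockout than in WT at day 4. From day 0, 7 fell and 4 rose with the length and GC offset, whereas on unscaled log2(TPM + 1) 7 rose and the others were not called. Fgf5, the marker of the primed epiblast, stood at 0.926 and 0.79 CPM at day 0, 2.55 and 2.57 CPM in the double knockout and 170.4 and 152 CPM in WT. It rose from day 0 (log2 change 1.58, SE 0.25, adjusted p = 0.00071) and remained 62.8-fold below WT (log2 change -5.97, SE 0.25, adjusted p = 7.8e-06). Otx2, an epiblast and anterior homeobox factor, stood at 40.9 and 49.3, 62.7 and 59.4 and 242 and 209 CPM in the same order, a difference from WT of -1.89 (adjusted p = 0.00028). The double knockout stood far under WT in both genes. From day 0 Otx2 was not called, but it rose with the length and GC offset (0.60, adjusted p = 0.0175).

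Some primed epiblast genes went down on the TMM scale where WT cells took them up, though on log2(TPM + 1) none of the 3 given here was called. Pim2, a kinase gene, went from 74.7 and 79.3 to 35.1 and 38.2 CPM (log2 change -1.07, SE 0.18, adjusted p = 0.001), with 552 and 693 CPM in WT at day 4. Foxp1 went from 36.9 and 35.4 to 13.4 and 10.6 CPM (log2 change -1.59, SE 0.17, adjusted p = 0.00012), with 52.2 and 50.8 CPM in WT. Sox3, a SOXB1 factor of epiblast and neural plate, went from 2.48 and 3.13 to 0.54 and 0.325 CPM (log2 change -2.68, SE 0.52, adjusted p = 0.0022), with 5.69 and 15.3 CPM in WT. In each of these genes the double knockout libraries lay under both other groups. On log2(TPM + 1) Pim2 gave -0.03 (adjusted p = 0.92), Foxp1 -0.51 (0.081) and Sox3 -0.68 (0.13). Dnmt3b, the de novo DNA methyltransferase of the epiblast, stood at 205 and 238 CPM at day 0, 205 and 205 CPM in the double knockout and 1293 and 1453 CPM in WT, so that the WT libraries were far above the other groups (log2 change -2.74, SE 0.19, adjusted p = 3.5e-05). Its change from day 0 was -0.11 (adjusted p = 0.63), 1.05 on log2(TPM + 1) (adjusted p = 0.00135) and -0.71 with the length and GC offset (adjusted p = 0.0014).

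Genes that Nodal and Activin induce fell. Of 18 genes 9 fell and 3 rose (median -1.32). In WT 8 rose and 4 fell, and at day 4 14 were lower in the double knockout than in WT and 1 was higher. On unscaled log2(TPM + 1) values 5 rose and 4 fell. Nodal, the ligand, stood at 89.2 and 91.4 CPM in the stem cells, 11.9 and 8.63 CPM in the double knockout and 42.1 and 85.3 CPM in WT (log2 change -3.14, SE 0.41, adjusted p = 0.00028). Its inhibitor Lefty1 stood at 210.2 and 206 CPM in the stem cells, 0.81 and 0.209 CPM in the double knockout and 37.1 and 103 CPM in WT (log2 change -8.64, SE 0.70, adjusted p = 3.4e-05). Lefty2 stood at 129 and 137, 2.22 and 0.116 and 80.3 and 96.9 CPM in the same order (log2 change -6.80, SE 0.85, adjusted p = 0.00022). Every double knockout library was under every other library in these genes, and the 2 double knockout libraries themselves differed several-fold in Lefty1 and Lefty2.

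The co-receptor and feedback genes of the pathway followed unevenly. Tdgf1, which encodes the Nodal co-receptor CRIPTO, fell from 1080.0 and 1006 to 124 and 148 CPM (log2 change -2.94, SE 0.20, adjusted p = 1.8e-05), with 538 and 426 CPM in WT at day 4. Tgif1, a corepressor gene, fell by 1.54 on the log2 scale (adjusted p = 0.00024). Pmepa1, a known TGF-beta target chosen here after its values were seen, fell by 1.75, a call that was lost on log2(TPM + 1) (-0.04, adjusted p = 0.95) and with TMM scaling of TPM (-0.75, adjusted p = 0.2). Foxh1, which encodes the DNA-binding partner of SMAD2, stood at 24.4 and 36.5 CPM at day 0, 25.1 and 20.9 CPM in the double knockout and 33 and 82.5 CPM in WT, and was not called from day 0 (with the length and GC offset 0.61, adjusted p = 0.025). Among the genes that rose were Ccn1 and Skil. Ccn1 rose by 0.79 (adjusted p = 0.02). Skil, a SMAD corepressor gene, rose by 0.64 (adjusted p = 0.027) but fell with the length and GC offset (-0.71, adjusted p = 0.0022). Skil was not called when any 1 of the 4 libraries was left out (adjusted p = 0.064 to 0.14), nor Ccn1 without stem cell or double knockout replicate 1 (0.13 and 0.21).

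Primitive streak genes were mostly not induced. Of 17 streak genes 3 rose and 2 fell (median -0.35), whereas 12 rose in WT (median 3.91). At day 4, 11 of 17 were lower in the double knockout than in WT (3 without double knockout replicate 1 and 3 without replicate 2). T, which encodes Brachyury, stood at 0.388 and 0.342 CPM at day 0, 0.249 and 0.325 CPM in the double knockout and 90.2 and 106 CPM in WT. Mixl1, a mesendoderm homeobox gene, stood at 0.359 and 0.421, 0.104 and 0.0464 and 51.3 and 47.1 CPM. Eomes, the T-box factor of streak and trophoblast, stood at 3.5 and 3.69, 6.39 and 5.29 and 218 and 215 CPM. None of these genes was called between stem cells and double knockout, and the WT day 4 libraries lay far above both. Against WT the differences were -8.41 for T (adjusted p = 0.0073), -9.28 for Mixl1 (adjusted p = 0.0083) and -5.21 for Eomes (adjusted p = 0.00045). For T the adjusted p was 0.076 without double knockout replicate 1 and 0.07 without replicate 2, and for Mixl1 0.077 and 0.082.

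The streak genes that did rise were Wnt8a, Snai1 and Cdx2. Snai1, a repressor of E-cadherin, went from 1.52 and 1.66 to 10.7 and 8.54 CPM (log2 change 2.59, SE 0.64, adjusted p = 0.0078). Cdx2, a homeobox factor of both posterior embryo and trophoblast, went from 0.0598 and 0.105 to 1.91 and 1.67 CPM (log2 change 4.37, SE 1.00, adjusted p = 0.0052). Limma did not call Cdx2 on log2(TPM + 1) (1.21, adjusted p = 0.11) or with TMM scaling of TPM (0.98, adjusted p = 0.21). Wnt8a went from 0.239 and 0.184 to 1.93 and 3.18 CPM (log2 change 3.58, SE 0.95, adjusted p = 0.011), under the 21.2 and 33.1 CPM of WT at day 4. With TMM scaling of TPM in limma, Wnt8a was not called (1.37, adjusted p = 0.081). Gsc, which encodes goosecoid, fell from 0.926 and 0.948 to 0.187 and 0.116 CPM (log2 change -2.60, SE 0.88, adjusted p = 0.031), and Mesp2 from 2.6 and 2.11 to 1.18 and 1.02 CPM (log2 change -1.09, SE 0.36, adjusted p = 0.026). Neither Gsc nor Mesp2 was called with the length and GC offset, or when any 1 of the 4 libraries was left out (adjusted p = 0.084 to 0.15 and 0.05 to 0.13). Snai1 was not called without stem cell replicate 1 (adjusted p = 0.057), nor Wnt8a without stem cell replicate 1 or 2 (0.059 and 0.07). Lhx1 and Cer1, organizer genes, held 15 and 2 counts over both double knockout libraries and none at day 0, and WT at day 4 reached 38.2 and 47.7 and 23.6 and 23.4 CPM.

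Organizer genes were mixed. Of 11 genes 4 rose and 3 fell, near the shares over all genes (29.4% and 26.0%), and 9 were lower than in WT at day 4. The median log2 fold change was 3.06 as fitted and 0.96 with genes of 3 counts or fewer set at their bound. Dkk1, a WNT inhibitor, rose from 0.12 and 0.0263 to 3.97 and 5.13 CPM (log2 change 5.95, SE 0.90, adjusted p = 0.00059), and WT at day 4 held 8.89 and 9.22 CPM. Cyp26a1, which breaks down retinoic acid, rose from 0.239 and 0.29 to 6.33 and 5.78 CPM (log2 change 4.50, SE 0.60, adjusted p = 0.00031), with 45.4 and 49.7 CPM in WT. Frzb, another WNT inhibitor, had 1 count over the stem cell libraries and 334 over the double knockout libraries, a ratio of 261 (95% counting interval 46.6 to 10400), and reached 3.78 and 3.53 CPM. Chrd, which encodes the BMP inhibitor chordin, fell from 3.44 and 4.84 to 1.1 and 1.04 CPM (log2 change -1.95, SE 0.40, adjusted p = 0.0031), where WT held 8.03 and 17.8 CPM. The double knockout therefore held Dkk1, Cyp26a1 and Frzb above day 0 and Chrd below it.

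Most genes of the definitive endoderm list rose from day 0, and most of the list was lower than in WT at day 4. The lower members included Trh and Hhex, which fell from day 0. Of 16 definitive endoderm genes 10 rose and 4 fell (median 1.99), and 9 were lower than in WT at day 4 (4 without double knockout replicate 2). Gata6 stood at 0.329 and 0.29 CPM at day 0, 10.7 and 7.45 CPM in the double knockout and 15.4 and 17.4 CPM in WT (log2 change 4.87, SE 0.33, adjusted p = 1.8e-05). Gata4 stood at 0.926 and 0.948, 16.5 and 13.8 and 25.8 and 35.9 CPM (log2 change 4.01, SE 0.35, adjusted p = 4.1e-05). Sox17 stood at 0.12 and 0.237, 4.26 and 3.85 and 6.43 and 13.2 CPM (log2 change 4.47, SE 0.61, adjusted p = 0.00034). All 3 transcription factors are shared by definitive and extraembryonic endoderm, and each WT library was above each double knockout library. Foxa2, the forkhead factor of definitive endoderm and node, had 1 count over the stem cells and 175 over the double knockout libraries (ratio 137, 95% counting interval 24.3 to 5440). It reached 2.74 and 0.997 CPM, against 27.1 and 40.4 CPM in WT (log2 change -4.17, SE 0.69, adjusted p = 0.0027). Trh, the thyrotropin-releasing hormone gene, fell from 273 and 294 to 29.3 and 21.8 CPM (log2 change -3.47, SE 0.26, adjusted p = 2.4e-05), where WT held 427 and 649 CPM.

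Nearly the whole list of extraembryonic endoderm genes rose. Of 24 genes 23 rose (median 3.71). In WT 21 rose, and at day 4 11 were lower in the double knockout than in WT and 3 were higher. Without double knockout replicate 2, 6 were lower, and without WT day 4 replicate 2, 6 were higher. Dab2, an endocytic adaptor, stood at 1.7 and 2.63 CPM at day 0, 58.9 and 38.3 CPM in the double knockout and 245 and 207 CPM in WT (log2 change 4.48, SE 0.29, adjusted p = 1.4e-05). Cubn, the receptor cubilin, stood at 0.478 and 0.658, 59.2 and 31.7 and 334 and 266 CPM (log2 change 6.31, SE 0.49, adjusted p = 2.8e-05). Lrp2, the receptor megalin, stood at 30.3 and 32.7, 133 and 131 and 533 and 492 CPM (log2 change 2.07, SE 0.17, adjusted p = 3.2e-05). These parts of the visceral endoderm uptake machinery were above day 0 in both double knockout libraries and under WT in both. Against WT the differences were -2.22, -2.72 and -1.96 (adjusted p = 0.00044, 0.0012 and 9.3e-05). The rise of Lrp2, whose transcript is 15150 bases long, was 0.51 with the length and GC offset (adjusted p = 0.014), and that of Cubn 4.67. The member that was not called from day 0 was Amn, the partner of cubilin, with 1.46 and 1.66 CPM at day 0, 3.07 and 1.07 CPM in the double knockout and 4.18 and 24.1 CPM in WT (with the offset 1.78, adjusted p = 0.015).

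Secreted carriers of the yolk sac also lay under WT in each library; these 3 were chosen after their values were seen. Afp, alpha-fetoprotein, had 1 count over the stem cells and 220 over the double knockout libraries (ratio 172, 95% counting interval 30.6 to 6830), and stood at 1.29 and 3.66 CPM against 46.5 and 38.4 CPM in WT (log2 change -4.11, SE 0.49, adjusted p = 0.00049). Apob, the lipoprotein gene, rose from 0.269 and 0.448 to 4.65 and 3.13 CPM (log2 change 3.42, SE 0.41, adjusted p = 0.00018), against 199 and 133 CPM in WT (log2 change -5.41, SE 0.36, adjusted p = 3.5e-05). With TMM scaling of TPM in limma, the rise of Apob from day 0 was not called (0.53, adjusted p = 0.084). Ttr, transthyretin, had no count in the stem cells and was at least 117-fold higher in the double knockout, with 6.02 and 3.83 CPM against 12.3 and 20.4 CPM in WT. Pdgfra, a receptor of primitive endoderm and mesoderm, rose from 0.179 and 0.474 to 24.9 and 19.1 CPM (log2 change 6.04, SE 0.47, adjusted p = 2.8e-05), and its difference from WT (31.3 and 25.6 CPM) was not called.

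Mesoderm markers rose in part. Of 15 paraxial and lateral mesoderm genes 6 rose and 3 fell. Their median was 1.42 as fitted and 0.96 with genes of 3 counts or fewer at their bound. Over all genes tested 29.4% rose and 26.0% fell, shares to set beside this count and the hematoendothelial one below. Kdr, the VEGF receptor of mesoderm and endothelium, rose from 0.239 and 0.29 to 5.52 and 2.48 CPM (log2 change 3.90, SE 0.46, adjusted p = 0.00017), with 4.3 and 4.75 CPM in WT. Tcf15, a factor of paraxial mesoderm that stem cells also express, fell from 30.1 and 27.5 to 2.06 and 2.09 CPM (log2 change -3.79, SE 0.45, adjusted p = 0.00016). Of 11 hematoendothelial genes 4 rose and 4 fell (2 without stem cell replicate 2 and 1 without double knockout replicate 2). Cdh5, VE-cadherin, had 3 counts over the stem cells and 3539 over the double knockout (ratio 923, 95% counting interval 316 to 4480), with 42.8 and 34.3 CPM in the double knockout and 0.252 and 0.38 CPM in WT at day 4. The other risen members were Kdr, Gata2 and Gata1, and the fallen ones included Tek (log2 change -1.55, SE 0.42, adjusted p = 0.012) and Pecam1 (log2 change -0.95, SE 0.29, adjusted p = 0.02), an endothelial receptor and an adhesion gene. Tek was not called without stem cell or double knockout replicate 2 (adjusted p = 0.057 and 0.099). Pecam1 was not called without stem cell replicate 1 or 2 or double knockout replicate 2 (adjusted p = 0.053, 0.099 and 0.15), and it turned to 0.04 on log2(TPM + 1).

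Neuroectoderm genes showed no common direction on the TMM scale. Of 24 genes 7 rose and 6 fell (median -0.23), shares close to those of all genes tested. With the length and GC offset 7 rose and 10 fell (median -0.68), and on unscaled log2(TPM + 1) 6 of the 11 tested there rose and 1 fell. Sox1, the earliest neural plate marker, stood at 1.28 and 1.18 CPM at day 0 and 0.955 and 0.626 CPM in the double knockout, and Pax6 at 2.09 and 2.03 and 1.33 and 0.951 CPM. Neither was called, but Sox1 was with the offset (-1.34, adjusted p = 0.036). Irx3 rose from 0.269 and 0.579 to 21.7 and 17.8 CPM (log2 change 5.52, SE 0.71, adjusted p = 0.00026), above both WT libraries of day 4 (0.549 and 1.81 CPM). Gbx2, En2 and Tubb3 fell by 3.73, 2.50 and 1.81 on the log2 scale. En2 was not called without double knockout replicate 2 (adjusted p = 0.058), nor Tubb3 without replicate 1 (0.075). Without stem cell replicate 1, 4 of the 24 rose.

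Surface ectoderm and simple epithelial genes rose. Of 16 genes 11 rose and 1 fell (median 2.00), whereas 3 rose and 3 fell in WT. At day 4, 13 were higher in the double knockout than in WT (8 without double knockout replicate 2). Krt8, a keratin of simple epithelia, stood at 67.6 and 65.2 CPM at day 0, 947 and 1163 CPM in the double knockout and 67.7 and 159 CPM in WT (log2 change 3.99, SE 0.42, adjusted p = 9.5e-05). Krt18, its partner, stood at 84.7 and 69.9, 843 and 1095 and 132 and 218 CPM (log2 change 3.65, SE 0.30, adjusted p = 3.7e-05). Krt19 stood at 40.7 and 33.2, 349 and 423 and 15.5 and 41.4 CPM (log2 change 3.39, SE 0.50, adjusted p = 0.00053). For each of these keratins both double knockout libraries were above all WT libraries of either day. Dlx3, a homeobox gene of epidermis and placenta, rose from 0.269 and 0.342 to 59.7 and 63.5 CPM (log2 change 7.63, SE 0.36, adjusted p = 6.2e-06). Tfap2c, an AP-2 factor of trophoblast, germ cells and surface ectoderm, rose from 49.8 and 53.8 to 172 and 169 CPM, against 23.8 and 27.6 CPM in WT at day 4 (log2 change 1.72, SE 0.19, adjusted p = 0.00012). The fallen member was Krt17, from 33.3 and 28.3 to 1.14 and 0.51 CPM (log2 change -5.21, SE 0.50, adjusted p = 6.5e-05), and WT at day 4 held 0.48 and 1.26 CPM.

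The trophoblast list showed the sharpest contrast with WT. Of 18 tested genes 17 rose. The median log2 fold change was 4.98 as fitted and 4.79 with genes of 3 counts or fewer at their bound. In WT 5 rose and 6 fell (median -0.03). At day 4, 16 were higher in the double knockout than in WT and 1, Eomes, was lower. Eomes was also the member that was not called from day 0. The list was chosen with the rise of some of its members already known.

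Transcription factors of trophoblast specification were among the genes that rose. Hand1, a bHLH factor of trophoblast giant cells and lateral mesoderm, stood at 0.329 and 0.448 CPM at day 0, 60.6 and 62.7 CPM in the double knockout and 0.617 and 1.69 CPM in WT (log2 change 7.29, SE 0.50, adjusted p = 1.7e-05). Gata3 stood at 0.359 and 0.369, 34.1 and 26.1 and 0.617 and 0.808 CPM (log2 change 6.36, SE 0.46, adjusted p = 1.9e-05). Gata2 stood at 2.15 and 1.55, 109 and 125 and 0.595 and 1.33 CPM (log2 change 5.98, SE 0.50, adjusted p = 3.7e-05). These 3 factors were above all 4 WT libraries in both double knockout libraries. Esx1, an X-linked homeobox gene of placenta, rose from 2.09 and 1.9 to 48.4 and 59.3 CPM (log2 change 4.75, SE 0.31, adjusted p = 1.3e-05). Rhox9, of the X-linked reproductive homeobox cluster, rose from 6.81 and 4.42 to 132 and 178 CPM (log2 change 4.79, SE 0.36, adjusted p = 2.4e-05). Its neighbour Rhox6 (chosen after its values were seen) rose from 9.35 and 5.71 to 190.2 and 259.8 CPM (log2 change 4.90, SE 0.37, adjusted p = 2.5e-05), while WT at day 4 held 1.74 and 2.09 CPM. In both Rhox genes WT went down from day 0 and the double knockout up.

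Markers of several trophoblast layers were present at once; those in these sentences were chosen after their values were seen. Elf5, a stem cell factor of trophoblast, rose from 0.0299 and 0.105 to 2.45 and 2.39 CPM (log2 change 5.07, SE 0.69, adjusted p = 0.00035). Ascl2, needed for the spongiotrophoblast, rose from 5.47 and 4.56 to 20.2 and 23.4 CPM (log2 change 2.12, SE 0.39, adjusted p = 0.0016), with 0.983 and 2.57 CPM in WT at day 4. Plet1, a surface protein of ectoplacental cells, rose from 10.3 and 9.4 to 55.5 and 51.8 CPM (log2 change 2.44, SE 0.23, adjusted p = 6.4e-05). Krt7, a trophoblast keratin, rose from 13.6 and 12.8 to 179.7 and 179.9 CPM (log2 change 3.77, SE 0.36, adjusted p = 6.1e-05). Each of these was above all WT libraries in both replicates. Tpbpa, the spongiotrophoblast marker, had no count in the 4 WT libraries and stood at 1.41 and 2.48 CPM, at least 46.4-fold above day 0. Prl3d1, a placental lactogen of giant cells, had none either and stood at 3.51 and 5.98 CPM, at least 113-fold above day 0. DESeq2 did not call the rise of Prl3d1 (log2 change 9.85, adjusted p = 0.07). Of the short words of its transcripts, counted as for the serpin copies below, 55.6% also occur in another gene. Its single values are therefore uncertain. Gcm1, the labyrinth factor, had no count at day 0 and stood at 1.27 and 1.07 CPM, at least 27.8-fold higher, with 0.343 and 0.261 CPM in WT at day 4. Tpbpa, Prl3d1 and Gcm1 were thus low in level next to Hand1, Gata2 and Gata3, but above a WT background at or near 0. Elf5 was low in level too, and Ascl2 was not near 0 at day 0.

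**Figure D4:**
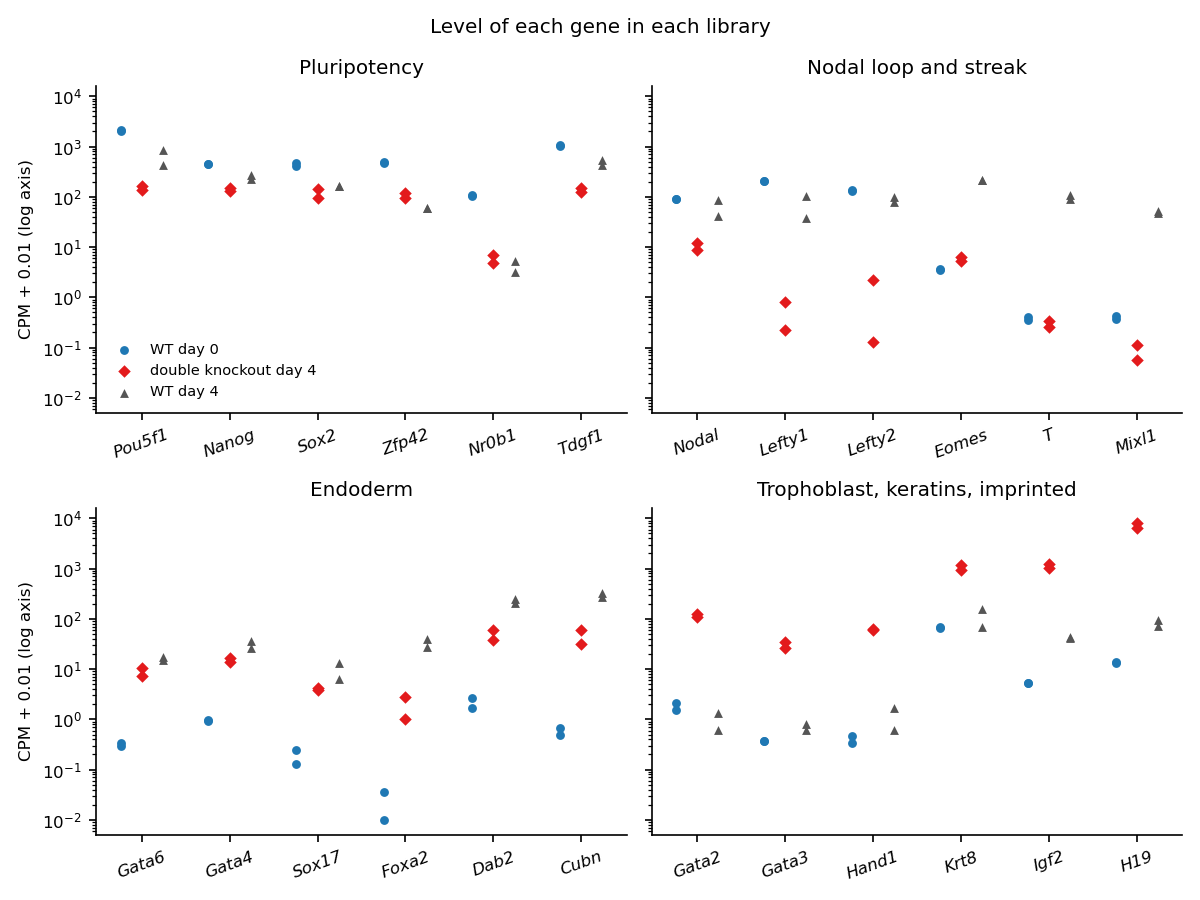
Level of 24 genes in each library (CPM + 0.01, log axis), in 4 panels, for WT day 0 (blue circles), the double knockout at day 4 (red diamonds) and WT day 4 (grey triangles), 2 libraries each. Pluripotency genes fell in both day 4 groups, streak genes rose in WT and not in the double knockout, endoderm genes lay between the WT days, and trophoblast genes, keratins, Igf2 and H19 lay highest in the double knockout.

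Many of the largest rises over all genes were of genes that the rodent placenta is known for. Among the 15 largest were Serpinb9c, Serpinb9e, Serpinb9f and Serpinb9g, of a serpin family that has expanded in rodents, the placental cathepsin Ctsj, the prolactin family member Prl2c5, and Plac1 and Pappa2. None of the 4 serpins had a count at day 0. Serpinb9e stood at 58.1 and 67.1 CPM in the double knockout, at least 1490-fold above day 0, and at 0.229 and 0.285 CPM in WT at day 4. Serpinb9f stood at 20.5 and 20 CPM (at least 482-fold), Serpinb9g at 18.1 and 17.1 CPM (at least 419-fold) and Serpinb9c at 10 and 10.6 CPM (at least 246-fold). Ctsj stood at 5.81 and 9.97 CPM with no count in the 4 WT libraries, at least 188-fold above day 0. Both double knockout libraries carried each of these transcripts. Plac1 had 3 counts over the stem cells and 5436 over the double knockout (ratio 1420, 95% counting interval 485 to 6880). Pappa2, a protease that cuts IGF-binding proteins, had 2 and 1159 (ratio 454, interval 125 to 3750). Pparg, a nuclear receptor of fat cells that the placenta also needs, had 1 and 2627 (ratio 2060, interval 369 to 81300). Fam90a1b had 2 and 2736 (ratio 1070, interval 296 to 8850), and Olr1, a lectin-like receptor for oxidised lipoprotein, had none and 17.9 and 18.5 CPM (at least 433-fold).

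The Serpinb9 copies lie side by side on chromosome 13 and are close in sequence, which limits how far their values can be told apart. Of the 50-base words in its annotated transcripts, 78.7% of those of Serpinb9f, 54.8% of Serpinb9g and 28.4% of Serpinb9e also occur in another gene, so reads may be split among the copies and each single value is uncertain. The same window before the start site is printed below for the 3 copies with the largest rises, since it shows how alike the copies are. It spans chr13:33249373-33249607, chr13:33323827-33324061 and chr13:33484551-33484785 on the plus strand (RefSeq, GRCm38.p6), 5′ to 3′, with capitals at the 11 of 235 positions where the 3 differ.
Serpinb9e: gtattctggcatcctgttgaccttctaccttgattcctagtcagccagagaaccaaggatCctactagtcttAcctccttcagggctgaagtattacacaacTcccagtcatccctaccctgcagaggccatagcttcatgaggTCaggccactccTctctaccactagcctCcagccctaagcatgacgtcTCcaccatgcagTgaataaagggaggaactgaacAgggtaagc
Serpinb9f: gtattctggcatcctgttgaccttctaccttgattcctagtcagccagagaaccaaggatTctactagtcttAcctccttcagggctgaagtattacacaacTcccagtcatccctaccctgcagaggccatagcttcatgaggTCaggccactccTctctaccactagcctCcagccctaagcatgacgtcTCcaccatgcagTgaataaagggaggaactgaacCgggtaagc
Serpinb9g: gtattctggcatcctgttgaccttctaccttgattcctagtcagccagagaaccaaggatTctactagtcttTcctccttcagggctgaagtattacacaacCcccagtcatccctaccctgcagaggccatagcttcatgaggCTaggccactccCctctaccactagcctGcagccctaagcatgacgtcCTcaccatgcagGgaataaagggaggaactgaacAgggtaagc
Serpinb9e and Serpinb9f differ at 2 positions (99.1% identical), and each differs from Serpinb9g at 10 (95.7%). These 3 copies were picked by their rises and may share reads, so their rising together says nothing about the windows.

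Imprinted genes included the most abundant rises. Of 26 genes 13 rose and 2 fell (median 0.76), and at day 4 14 were higher than in WT and 5 were lower. In WT 15 of the 26 rose and 3 fell over the same 4 days (median 0.95). H19, a noncoding RNA on chromosome 7 made from the maternal copy, stood at 14 and 13.1 CPM at day 0, 6579 and 8104 CPM in the double knockout and 72.5 and 94.7 CPM in WT (log2 change 9.08, SE 0.30, adjusted p = 2.1e-06). By mean TPM, the authors' level per transcript length, H19 ranked 7232 of the tested genes at day 0 and 8 in the double knockout. Igf2, its neighbour and the fetal growth factor made from the paternal copy, stood at 5.35 and 5.35, 1051 and 1229.6 and 44.1 and 42.3 CPM (log2 change 7.74, SE 0.28, adjusted p = 2.8e-06). Of the words of the Igf2 transcripts, counted as for the serpin copies above, 61.2% also occur in another gene, so its single values are uncertain. Peg10, a retrotransposon-derived gene needed for the placenta, stood at 172 and 202, 6598 and 11117 and 655 and 502 CPM (log2 change 5.57, SE 0.33, adjusted p = 1.1e-05). In all 3 both double knockout libraries were above WT at day 4, and WT at day 4 above day 0.

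Other imprinted genes moved in both directions. Plagl1 and Peg3 (chosen after their values were seen) rose from 0.508 and 0.658 to 30.2 and 33.4 CPM (log2 change 5.76, SE 0.48, adjusted p = 3.6e-05) and from 36.9 and 40.8 to 611 and 918 CPM (log2 change 4.30, SE 0.36, adjusted p = 3.7e-05). Sgce, next to Peg10, rose from 8.1 and 8.85 to 66.4 and 73 CPM (log2 change 3.04, SE 0.24, adjusted p = 2.7e-05), and Zim1 from 0.418 and 0.421 to 11 and 14.5 CPM (log2 change 4.91, SE 0.30, adjusted p = 1.1e-05). Grb10, a growth inhibitor and adaptor of the insulin receptor, fell from 132 and 148 to 13.8 and 15.9 CPM (log2 change -3.23, SE 0.32, adjusted p = 7.7e-05), whereas WT at day 4 held 233 and 214 CPM. Snrpn fell from 225 and 212 to 105 and 112 CPM (log2 change -1.01, SE 0.15, adjusted p = 0.00054), against 321 and 345 CPM in WT. Both fallen genes were under all WT libraries of either day. On log2(TPM + 1) the change of Snrpn was 0.01.

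Signalling genes moved in part. Of 17 BMP ligands and targets 7 rose and 3 fell, of which 1 was called without stem cell replicate 1 or either double knockout library (median 0.66), and 8 were higher than in WT at day 4. Id2, an inhibitor of bHLH factors and BMP target, rose from 14.5 and 15.5 to 52.8 and 54 CPM (log2 change 1.83, SE 0.21, adjusted p = 0.00015), against 9.35 and 10 CPM in WT. Msx2, a homeobox BMP target, rose from 0.359 and 0.448 to 10.4 and 10.6 CPM (log2 change 4.69, SE 0.48, adjusted p = 8.2e-05). Of 19 FGF genes 3 rose and 8 fell (median -0.43), but on unscaled log2(TPM + 1) 7 rose and 5 fell. Etv4, an ETS factor induced by FGF, fell from 77.9 and 73.6 to 7.2 and 7.63 CPM (log2 change -3.35, SE 0.29, adjusted p = 4.4e-05), and its relative Etv5 fell by 1.53 on the log2 scale. Fgf15 fell from 12 and 13.8 to 1.04 and 0.812 CPM (log2 change -3.79, SE 0.27, adjusted p = 1.9e-05), where WT at day 4 held 24.1 and 27.8 CPM. The receptor gene Fgfr2, by contrast, rose from 8.93 and 9.95 to 64.9 and 62.5 CPM (log2 change 2.75, SE 0.17, adjusted p = 1.3e-05), above the 29.8 and 27.8 CPM of WT. Etv4, Etv5 and Fgf15 thus went down and the receptor gene up, as did the ligand gene Fgf5 (above).

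Most WNT genes were not called. Of 18 genes 5 rose, near the share over all genes (29.4%), and 2 fell, and 9 were lower than in WT at day 4 (2 without either double knockout library). Without stem cell or double knockout replicate 1, 3 rose from day 0. Wnt7b rose from 5.47 and 5.56 to 28.9 and 26 CPM (log2 change 2.32, SE 0.23, adjusted p = 7.9e-05), against 1.92 and 2.4 CPM in WT. Wnt6 rose from 1.25 and 1.11 to 4.46 and 5.08 CPM (log2 change 2.01, SE 0.62, adjusted p = 0.021), against 0.0686 and 0.38 CPM in WT. Lef1, a nuclear partner of beta-catenin, fell from 14.2 and 14.2 to 4.57 and 4.06 CPM (log2 change -1.72, SE 0.33, adjusted p = 0.002), and WT held 29.6 and 34.5 CPM. These ligand genes went up in the double knockout and down in WT, with a difference between the day 4 groups of 3.67 and 4.40 (adjusted p = 3.5e-05 and 0.0026). From day 0, Wnt6 was not called when any 1 of the 4 libraries was left out (adjusted p = 0.059 to 0.11).

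Components of the TGF-beta pathway other than its targets rose in number: 12 of 24 rose and 5 fell (median 0.86). With the length and GC offset 7 rose and 8 fell. Bmpr1a, a BMP receptor, rose from 34 and 36.9 to 170.3 and 195 CPM (log2 change 2.37, SE 0.24, adjusted p = 8.2e-05), and Tgfbr2, the TGF-beta receptor, from 1.02 and 1.11 to 5.73 and 5.4 CPM (log2 change 2.39, SE 0.37, adjusted p = 0.00063). Among ligands, Gdf3 fell from 83.4 and 78.9 to 18.1 and 13.8 CPM (log2 change -2.34, SE 0.19, adjusted p = 3e-05) and Inhbb, an Activin subunit, from 9.89 and 10.3 to 1.27 and 1.41 CPM (log2 change -2.91, SE 0.37, adjusted p = 0.00024). The ligands named fell and the receptors rose, and the offset kept these 4 directions.

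Extracellular matrix genes rose: 18 of 27, with 1, Lox, lower (median 1.26 as fitted, 1.19 with genes of 3 counts or fewer at their bound). With the length and GC offset 12 rose and 5 fell, and the list's median length was 4887 bases. Col4a1, a basement membrane collagen, rose from 13.5 and 18.5 to 515 and 386 CPM (log2 change 4.81, SE 0.43, adjusted p = 4.7e-05) and Col4a2 from 9.59 and 10.7 to 274 and 219 CPM (log2 change 4.60, SE 0.45, adjusted p = 6.8e-05). Postn, periostin, rose from 0.0896 and 0.158 to 9.82 and 8.47 CPM (log2 change 6.16, SE 0.43, adjusted p = 1.8e-05), while WT at day 4 stayed at 0.137 and 0.119 CPM. Of 12 fibroblast and stroma markers 4 rose and 4 fell, near the shares over all genes (29.4% and 26.0%). The summed level of these markers was 81.7 and 78.1 CPM at day 0 and 67.4 and 69.5 CPM in the double knockout. Lox was not called without either stem cell library or double knockout replicate 2, and 2 fibroblast markers fell without stem cell or double knockout replicate 1.

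The list of glycolysis and hypoxia genes was mixed. Of 25 genes 9 rose and 3 fell (median 0.02), and 7 were higher than in WT at day 4 (11 without WT replicate 2 and 4 without double knockout replicate 2). When any 1 of the 4 libraries was left out, 1 fell from day 0. Ndrg1, a stress and hypoxia gene, rose from 32.3 and 38.9 to 466 and 581 CPM (log2 change 3.88, SE 0.21, adjusted p = 9e-06), against 67.2 and 76.2 CPM in WT. Adm, adrenomedullin, rose from 0.598 and 0.764 to 11.2 and 17.8 CPM (log2 change 4.40, SE 0.33, adjusted p = 2.4e-05). Slc2a1, the glucose transporter GLUT1, rose from 431 and 451 to 1624 and 1753 CPM (log2 change 1.94, SE 0.30, adjusted p = 0.00064), and Vegfa from 40.3 and 53.5 to 160.2 and 152 CPM (log2 change 1.73, SE 0.22, adjusted p = 0.00024). Eno1, an enolase, fell from 3607 and 3076 to 1168 and 1221 CPM (log2 change -1.48, SE 0.26, adjusted p = 0.0013). On unscaled log2(TPM + 1) 18 of the 25 rose and 1 fell, and Eno1 was not called (-0.32, adjusted p = 0.27).

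Growth-related lists fell on the TMM scale. Of 23 DNA replication genes 19 fell (median -1.24; 22 with the length and GC offset, but 10 fell and 2 rose on unscaled log2(TPM + 1)), and 10 were lower than in WT at day 4 (1 without double knockout replicate 1 and 2 without replicate 2). Pcna, the sliding clamp, fell from 342 and 339 to 130.1 and 131 CPM (log2 change -1.38, SE 0.15, adjusted p = 0.00011), with 217 and 216 CPM in WT. Gins1, of the replicative helicase, fell from 75.5 and 63.1 to 16.1 and 17.4 CPM (log2 change -2.05, SE 0.17, adjusted p = 3.5e-05), with 30.9 and 27.7 CPM in WT. Of 18 amino acid supply and stress genes 14 fell and 1, Ddit4, rose (median -1.87), and the offset gave 15 lower. Ddit4 was not called without either stem cell library or double knockout replicate 2. Psat1, of serine synthesis, fell from 628 and 633 to 101 and 98.3 CPM (log2 change -2.66, SE 0.15, adjusted p = 1.1e-05), and Asns, asparagine synthetase, from 881 and 790.2 to 218 and 206 CPM (log2 change -1.98, SE 0.17, adjusted p = 4e-05). WT at day 4 stood near the double knockout in both (156 and 146 and 162 and 148 CPM).

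Genes of oxidative phosphorylation and of the ribosome also fell, but they are short, and on unscaled log2(TPM + 1) 10 and 8 of them fell. Of 21 oxidative phosphorylation genes 18 fell (median -1.61, median length 1194 bases). With the offset 17 fell and the median was -0.58. Of 26 cytosolic ribosomal protein genes 25 fell (median -1.57, median length 828 bases). With the offset 8 fell and the median was -0.41. All ribosomal protein genes together took 16.79% and 12.46% of counts at day 0, 7.01% and 6.38% in the double knockout and 5.96% and 7.36% in WT at day 4. In WT 25 of the 26 fell, with a median of -1.56.

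Of 21 G1 regulators 7 rose and 6 fell, close to the shares over all genes (29.4% and 26.0%), and 13 rose and 4 fell on unscaled log2(TPM + 1). Without stem cell replicate 1 or 2, or without double knockout replicate 1, 3, 4 and 3 rose. Ccnd1, cyclin D1, fell from 107 and 102 to 25.2 and 22.7 CPM (log2 change -2.13, SE 0.18, adjusted p = 3.6e-05) and Cdk6, its kinase partner, from 30.7 and 26.6 to 3.3 and 2.74 CPM (log2 change -3.24, SE 0.26, adjusted p = 3.2e-05). WT at day 4 held 70.8 and 84.4 and 33.8 and 28.3 CPM, above both double knockout libraries. Rb1, the retinoblastoma gene, rose from 14.3 and 14.3 to 86.3 and 81 CPM (log2 change 2.55, SE 0.24, adjusted p = 6.4e-05). Of 18 p53 targets 9 rose and 2 fell (1 without stem cell or double knockout replicate 2). Mdm2, the p53 ubiquitin ligase, rose from 88.5 and 105 to 233 and 220.0 CPM (log2 change 1.23, SE 0.21, adjusted p = 0.0013), against 132 and 112 CPM in WT at day 4.

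The largest falls were mostly of predicted genes. Of the 15 largest, 10 carry only a predicted gene name (Gm followed by a number), and several had very different levels in the stem cell libraries. Gm43118 stood at 59.3 and 41.7 CPM at day 0 with no count in the double knockout, at least 1540-fold lower, and Gm26718 at 54.7 and 19.4 CPM, at least 1130-fold lower. Gm26718 was not called without double knockout replicate 1 or 2 (adjusted p = 0.051 and 0.052). Besides Lefty1, they included Fgf17, an FGF ligand, which fell from 31.8 and 30 to 0.27 and 0.232 CPM (log2 change -6.92, SE 0.64, adjusted p = 5.5e-05). Gdf1, a partner of Nodal, stood at 4.93 and 7 CPM at day 0 with no count in the double knockout, at least 182-fold lower, but it was not called when any 1 of the 4 libraries was left out (adjusted p = 0.061 to 0.11). WT at day 4 had none in replicate 1 and 6.11 CPM in replicate 2, and every 50-base word of its transcripts also occurs in another gene.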

How the data were processed

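RNA was measured by sequencing in 10 libraries of mouse stem cells and embryoid bodies, of which 4 form the main comparison and 2, of WT at day 4, a second one; the 14 ChIP-seq samples were not used. Per the file headers, the deposited gene tables hold RSEM expected counts, the authors' estimated reads per gene, beside TPM and FPKM values that the authors computed from them. No result rests on FPKM. The submitters' processing notes list, without role or order, RSEM, STAR, Bowtie2, HOMER, FastQC 0.11.5 and the build mm10. The annotation release and the strand setting are not given in the sources used here. Overlapping antisense genes cannot be told apart. Of 53379 gene IDs, 50604 matched GENCODE M21 with their version and 53274 without it, and 105 did not match. Gene positions, used for the split of chromosome 18, are those of GENCODE M21. The printed promoter windows and their coordinates are RefSeq's, on GRCm38.p6.

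Expected counts (12.2% to 14.6% of genes not whole) were rounded and fitted with edgeR 4.0.16 in R 4.3.3. The fit used TMM scaling, edgeR's filter on low counts, 1 quasi-likelihood model over 10 libraries in 5 groups (5 residual degrees of freedom) and Benjamini-Hochberg adjustment over 19470 genes at 0.05. Levels are CPM. A fold against a group without counts is a lower bound at 3 counts over that group, and ratios against 1 to 3 counts have exact 95% intervals; both cover counting error only. The fits were tested on simulated counts with 1 common spread for all genes. From day 0, edgeR recovered 17% of genes changed 2-fold and 94% of those changed 4-fold, and 1 of 112 calls was false. Against WT at day 4 it recovered 23% and 94%, and 8 of 125 calls were false. A gene that was not called may therefore still have changed 2-fold.

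Alternatives were other scalings, filters, blocks and thresholds, an offset for length and GC content, DESeq2 1.42.0, limma 3.58.1 on log2(TPM + 1) and log2(TPM + 0.1) over genes of mean TPM of at least 1, and each library left out. With 1 library left out, the remaining one of its group is assumed to vary like the other groups. A TMM-scaled limma fit was added after seeing the data. Members, the 45 gene lists and the tests were chosen with earlier results of these data known. Named genes were the receptor SMADs and Smad4, a panel of lineage markers, up to 5 called members per list and direction with the smallest adjusted p among genes of at least 2 CPM, the 15 largest rises and falls from day 0 and the 10 against WT at day 4 (at least 5 CPM, no overlap between groups). Exceptions are marked where they occur, and some genes that the rule names are not reported here.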

Additional observations from a re-analysis of the deposited data

Results flagged for a closer look

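Some of the genes named here were called from day 0 in both the double knockout and WT, but in opposite directions, and the difference between the 2 groups of day 4 was itself called by edgeR's quasi-likelihood test. Both changes are measured against the same stem cell libraries. There were 21 such genes, 9 higher and 12 lower in the double knockout than in WT, with adjusted p of the difference from 1.5e-05 to 0.0026. For each gene the log2 difference between double knockout and WT at day 4 is followed in brackets by the log2 fold changes from day 0 in the double knockout and in WT.

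Genes of trophoblast and simple epithelium went up in the double knockout and down in WT: the difference was 3.62 for Ascl2 (2.12 and -1.5), 4.82 for Krt7 (3.77 and -1.05), 3.44 for Plet1 (2.44 and -0.99), 6.87 for Rhox6 (4.9 and -1.97), 7.26 for Rhox9 (4.79 and -2.48) and 2.73 for Tfap2c (1.72 and -1.01). Genes of signalling and its response did the same, with 2.46 for Id2 (1.83 and -0.63), 4.4 for Wnt6 (2.01 and -2.39) and 3.67 for Wnt7b (2.32 and -1.35). Genes of epiblast and endoderm lists went the other way, down in the double knockout and up in WT, with -2.1 for Foxp1 (-1.59 and 0.51), -4.09 for Pim2 (-1.07 and 3.02), -4.58 for Sox3 (-2.68 and 1.9) and -4.4 for Trh (-3.47 and 0.92). So did the organizer, FGF and WNT genes, with -3.59 for Chrd (-1.95 and 1.64), -4.8 for Fgf15 (-3.79 and 1.01), -5.79 for Gsc (-2.6 and 3.2) and -2.89 for Lef1 (-1.72 and 1.17). The others were -7.22 for Kcnj3 (-2.52 and 4.7), -5.35 for Psmb8 (-3.65 and 1.71), -1.62 for Snrpn (-1.01 and 0.61) and -7.91 for Trim67 (-5.56 and 2.35), which encode a channel, an immunoproteasome subunit, a splicing protein and a ubiquitin ligase. The fall of Gsc and the rise of Wnt6 in the double knockout were not called when any 1 of the 4 libraries was left out. On unscaled log2(TPM + 1) the falls of Chrd (-0.43), Foxp1 (-0.51), Gsc (-0.47), Kcnj3 (-0.3), Lef1 (-0.66), Pim2 (-0.03), Snrpn (0.01) and Sox3 (-0.68) were not called.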

How the results depend on the processing

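Between double knockout and stem cells, 10779 genes were called, and every alternative stayed within 1.5 times of that count, from 7474 to 8575 with 1 library left out and from 7858 (fold threshold of 1.5) to 12723 (the compared groups alone) otherwise. Between the day 4 groups, 4506 were called. That count moved to 6850 with the replicate block and the length and GC offset together, to 2394 with a fold threshold of 1.5, to 2778 in a fit of the compared groups alone (fewer samples) and to 2743 on log2(TPM + 0.1) in limma. It ranged from 2126 to 6051 with 1 library left out, lowest without double knockout replicate 1 (2126) or 2 (2166). The cause of these moves was not tested. DESeq2 called 10567 and 4791 genes. The replicate numbers share only a number: same-numbered deviations correlated at -0.039 between day 0 and the double knockout, at 0.117 between day 0 and WT at day 4 and at -0.261 between the day 4 groups. The replicate block gave 10961 and 4571 calls.

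Single genes turned sign under some alternatives from day 0. With the length and GC offset (in brackets, with the replicate block too) these were Dppa3 at 0.75 (0.77), Foxh1 at 0.61 (0.63), Il6st at -0.94 (-0.93), Skil at -0.71 (-0.71), Stat3 at -0.46 (-0.46), T at 0.09 (0.06), Tet2 at -0.62 (-0.63) and Zfp281 at -0.46 (-0.47). On log2(TPM + 1) (in brackets, log2(TPM + 0.1)) they were Dnmt3b at 1.05 (1.07), Dppa3 at 0.73 (0.75), Foxh1 at 0.61 (0.64), Pecam1 at 0.04 (0.05), Snrpn at 0.01 (0.01), T at 0.18 (0.58) and Tfcp2l1 at 0.6 (0.62). The TMM-scaled TPM fit, chosen after seeing the data, gave 0.19 for Dnmt3b. On library totals they were Dnmt3b at 0.28, Dppa3 at 0.14, T at 0.04 and Tfcp2l1 at 0.02. With 1 library left out, Amn ranged from -0.55 (without double knockout replicate 1) to 0.98 and Stat3 from -0.06 (the same) to 0.3. Of these, Pecam1, Skil, Snrpn and Zfp281 had been called as reported. Genes with few counts are limited by depth, and every gene by 2 libraries a group.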

Other observations

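Genes of several systems outside germ layer choice also moved from day 0 to the double knockout. Smarca2, which encodes the chromatin remodeller BRM, went from 1.11 and 1.11 CPM in the stem cells to 14.2 and 19.1 CPM (log2 change 3.91, SE 0.33, adjusted p = 3.7e-05). Cbx8, which encodes a reader of Polycomb marks, went from 0.269 and 0.316 to 4.19 and 3.76 CPM (log2 change 3.75, SE 0.46, adjusted p = 0.0002). WT at day 4 held 0.32 and 0.689 CPM of Cbx8, near the stem cells and under the double knockout. Among 28 chromatin regulators 15 rose and 3 fell, but with the length and GC offset 9 rose and 8 fell. Stra6, the retinol receptor, rose from 0.179 and 0.5 to 9.18 and 12.1 CPM (log2 change 4.94, SE 0.56, adjusted p = 0.00013), above the 0.983 and 2.23 CPM of WT at day 4, while Crabp1, a retinoic acid binding protein, fell from 33.3 and 25.6 to 7.31 and 5.75 CPM (log2 change -2.17, SE 0.27, adjusted p = 0.00023).

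Subunits of the immunoproteasome, the form that trims peptides for MHC class I, were among the genes that fell, but the wider lists had no common direction. Of 14 MHC class I and antigen presentation genes 2 rose and 4 fell (median -0.18). Of 21 interferon response genes 6 rose and 8 fell (median 0.22). Over all genes tested 29.4% rose and 26.0% fell. Psmb8 stood at 3.97 and 3.74 CPM at day 0, 0.374 and 0.232 CPM in the double knockout and 9.67 and 15.5 CPM in WT at day 4 (log2 change -3.65, SE 0.41, adjusted p = 0.00013). Psmb10 stood at 55.6 and 39.3, 2.8 and 2.95 and 11.8 and 38.7 CPM in the same order (log2 change -4.04, SE 0.52, adjusted p = 0.00025). In both genes each double knockout library was under each WT library of either day. The interferon-induced membrane protein genes Ifitm2 and Ifitm3 fell from 528 and 496 to 93 and 87.5 CPM (log2 change -2.50, SE 0.18, adjusted p = 2.1e-05) and from 97.7 and 72.6 to 11 and 10.7 CPM (log2 change -2.97, SE 0.21, adjusted p = 2e-05), and WT at day 4 held 88.4 and 119 and 18.9 and 22.2 CPM. Of the words of their transcripts, counted as for the serpin copies, 48.5% for Ifitm2 and 10.0% for Ifitm3 also occur in another gene. The single values of Ifitm2 are therefore uncertain. Vim, which encodes vimentin, an intermediate filament of mesenchyme and of stem cells in culture, fell from 154 and 143 to 24.9 and 25.4 CPM (log2 change -2.56, SE 0.34, adjusted p = 0.00031), with 33.4 and 51.1 CPM in WT.

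Of 18 Notch genes 6 rose and 5 fell (median 0.10), near the shares over all genes (29.4% and 26.0%). The receptor genes Notch1 and Notch2 and the target gene Hes1 went different ways. Notch2 and Notch1 rose from 15.4 and 14.7 to 49.2 and 48 CPM (log2 change 1.69, SE 0.17, adjusted p = 7.3e-05) and from 20.2 and 29.3 to 108 and 84.6 CPM (log2 change 1.96, SE 0.45, adjusted p = 0.0053). Hes1, a target of the pathway, fell from 40 and 30.1 to 10.9 and 8.19 CPM (log2 change -1.88, SE 0.27, adjusted p = 0.00049), while WT at day 4 held 31.7 and 31.9 CPM. The double knockout thus lay above day 0 in Notch1 and Notch2 and under it in Hes1, while the list as a whole had no common direction. With the length and GC offset these changes were 0.48, 0.85 and -0.97. Notch1 was not called without stem cell replicate 1 (adjusted p = 0.053). Among the largest differences from WT at day 4 that no list above holds, Kcnj3, a potassium channel gene, stood at 0.311 and 0.418 CPM in the double knockout against 64.8 and 44.3 CPM (log2 change -7.22, SE 0.41, adjusted p = 1.8e-05), and Trim67 at 0.187 and 0.0464 against 25.2 and 33.6 CPM (log2 change -7.91, SE 0.92, adjusted p = 0.00045). Both were low in the double knockout also next to day 0, where they stood at 2.33 and 1.87 and 5.26 and 6.29 CPM.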
